A study of Bos taurus with 21 samples.

Results

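The immediate early response genes were followed in RNA-seq of somatic cells from the milk of 21 Holstein cows. The 10 genes were chosen by symbol, as FOS, FOSB, JUN, JUNB, EGR1, ATF3, DUSP1, IER3, ZFP36 and NR4A1, and all 10 were present among the 13570 gene rows of the count tables. The cows formed a high yielding group (HY, 9 cows) and a low yielding group (LY, 12 cows), and no treatment was described. Parity was 2 to 4 in both groups, and the lactation period was 41 to 268 days in HY and 52 to 270 days in LY. Cows are named here by group and number (HY1 to HY9, LY1 to LY12), and each was sequenced as 1 library, so the replicates were separate animals. Cells were spun out of fresh milk in the cold and washed before the RNA was extracted, and no sorting of cell types was described.

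Immediate early genes are switched on within minutes of a stimulus, without new protein synthesis, when kinase cascades activate factors already bound at their promoters. FOS, FOSB, JUN and JUNB encode subunits of the AP-1 transcription factor. EGR1 is a zinc finger factor, ATF3 a stress-induced bZIP factor and NR4A1 an orphan nuclear receptor. DUSP1, a phosphatase that inactivates MAP kinases, ZFP36, a protein that promotes decay of AU-rich mRNAs such as that of TNF, and IER3, a regulator of cell survival, act mainly as feedback. Milk somatic cells are a mixture of neutrophils, macrophages, lymphocytes and shed epithelial cells. In leukocytes these genes respond to microbial products and cytokines, and they can also respond to the handling of cells.

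A library held between 7878557 and 28541904 reads assigned to genes, and 12333 genes had a count. The genes of the major milk proteins took between 0.118% and 60.4% of the counts, with the highest shares in HY8 and HY9. Counts were scaled to CPM (the share of a library's reads, with the library size corrected by TMM factors of 0.460 to 1.481). Markers of neutrophils, macrophages, T cells and epithelial cells were counted in every cow, except CD28, which had no count in 2 cows. The neutrophil markers CSF3R and FPR1 had no row and CXCR1 had no count. Of 4 B cell markers, BLK alone was counted in every cow. HY2, LY7, LY9, LY11 and LY12 belonged to a set of 5 cows with a higher mapping rate, and values within the other 16 cows are given beside the main results. LY12 stood apart in the early genes, so results that rest on it are also given without it.

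All 10 genes were counted in every cow, the lowest count being 80 for NR4A1 in HY9. Together they took between 0.064% and 0.964% of the counts of a cow. Levels below are CPM, not corrected for gene length, so they are compared between cows and not between genes.

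**Figure D1:**
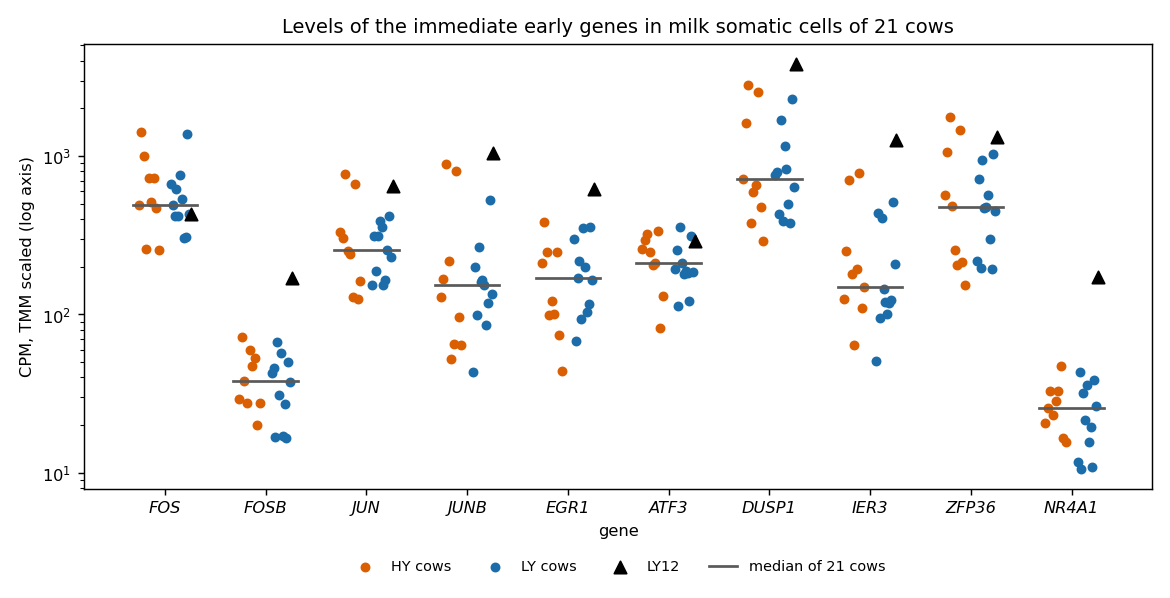
Level of each immediate early gene in CPM on a log axis, with 1 point per cow, HY cows in orange, LY cows in blue, LY12 as a black triangle and a bar at the median of the 21 cows. HY and LY cows overlap for every gene, and LY12 is highest for 6 of the 10 genes but lies below the median for FOS.

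The AP-1 genes differed in how they spread over the cows. FOS ranged from 254 CPM in HY9 through a median of 492 to 1423 in HY2, with LY10 next at 1380. FOSB ranged from 16.6 CPM in LY9 through a median of 38.1 to 170 in LY12, and the next cow, HY2, reached only 71.7. FOS was therefore highest in an HY and an LY cow that were nearly level, whereas FOSB stood out in LY12. JUN ranged from 125 CPM in HY8 through a median of 254 to 770 in HY3. JUNB spread more widely, from 43.6 CPM in LY1 through a median of 153 to 1047 in LY12, with HY3 at 895. Its standard deviation on the log2 scale was above that of 89.9% of the 9628 genes with a mean of at least 10 counts.

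EGR1 ranged from 44.0 CPM in HY9 through a median of 171 to 619 in LY12, with HY2 next at 382. NR4A1 was the lowest counted of the 10 and ranged from 10.6 CPM in LY3 through a median of 25.5 to 174 in LY12, while no other cow exceeded the 47.4 of HY7. NR4A1 and FOSB thus shared the same single high cow. ATF3 varied least, from 82.1 CPM in HY8 through a median of 210 to 355 in LY4, a 4.33-fold range. Its spread was above that of only 30.4% of genes.

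Among the feedback genes, DUSP1 ranged from 289 CPM in HY9 through a median of 713 to 3803 in LY12, with HY3 next at 2831. ZFP36 ranged from 154 CPM in HY9 through a median of 478 to 1763 in HY3. IER3 had the widest range of the 10, 24.8-fold, from 51.0 CPM in LY1 through a median of 149 to 1265 in LY12, with HY7 next at 787. The spread of IER3 was above that of 87.0% of genes, and those of DUSP1 and ZFP36 were each above that of 80.1%.

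The same few cows were high for most of the genes. LY12 was the highest cow for FOSB, JUNB, EGR1, DUSP1, IER3 and NR4A1, and its median rank over the 10 genes was 1. LY10 was among the 5 highest cows for 9 genes, HY7 for 8 and HY3 for 7. HY9 was among the 5 lowest cows for 8 genes and the lowest for 4. By the mean z score of the 10 genes, the 5 highest cows were LY12, HY3, HY7, LY10 and HY2, of which 3 were HY, and the 5 lowest held 2 HY cows.

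Across the 21 cows the genes rose and fell together. Pearson r of log2(CPM + 0.25) was above 0 for all 45 pairs, with a median of 0.667. Of these pairs, 32 passed an adjusted p of 0.1, all with a positive r, when p-values were adjusted over every pair of a member with any gene. Among pairs of a member with a gene outside the list, 6.05% passed with a positive r, and their median r was 0.000132. All these genes were read from the same libraries and scaled by the same factors. The median r of the 45 pairs was 0.692 within HY and 0.735 within LY, again with all 45 above 0 in each group. Within LY, 22 pairs passed, and pairs were not tested within HY. With the counts scaled again, the median was 0.665 in the 16 cows, where 21 pairs passed, and 0.674 without LY12, where 29 passed. The share over all genes is not given for these smaller sets of cows, so their counts cannot be set against 6.05%. Genes outside the members that passed positively with at least 5 members fell from 746 to 468 without LY12.

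The closest pair was JUNB with IER3 (r = 0.904, permutation p = 1e-05, Spearman rho = 0.810, permutation p = 3e-05). Here and below, 1e-05 is the smallest p that 100000 permutations can give. Without the 2 cows of most distant JUNB level, r of this pair was 0.848, and in the 16 cows it was 0.896. JUNB also followed ZFP36 (r = 0.893) and JUN (r = 0.872), and DUSP1 followed ZFP36 (r = 0.864). FOSB and NR4A1 formed another close pair (r = 0.854, permutation p = 1e-05, rho = 0.794, permutation p = 0.00011), which did not rest on LY12 alone, since r was 0.759 without it, 0.715 without LY9 and LY12, the cows of most distant FOSB level, and 0.744 in the 16 cows. DUSP1 and ZFP36 each passed with all 9 other members, while 7.14% and 8.37% of genes outside the members passed positively with them. EGR1 passed with 4, of which DUSP1 was closest (r = 0.803), while 9.05% of genes outside the members passed positively with EGR1.

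**Figure D2:**
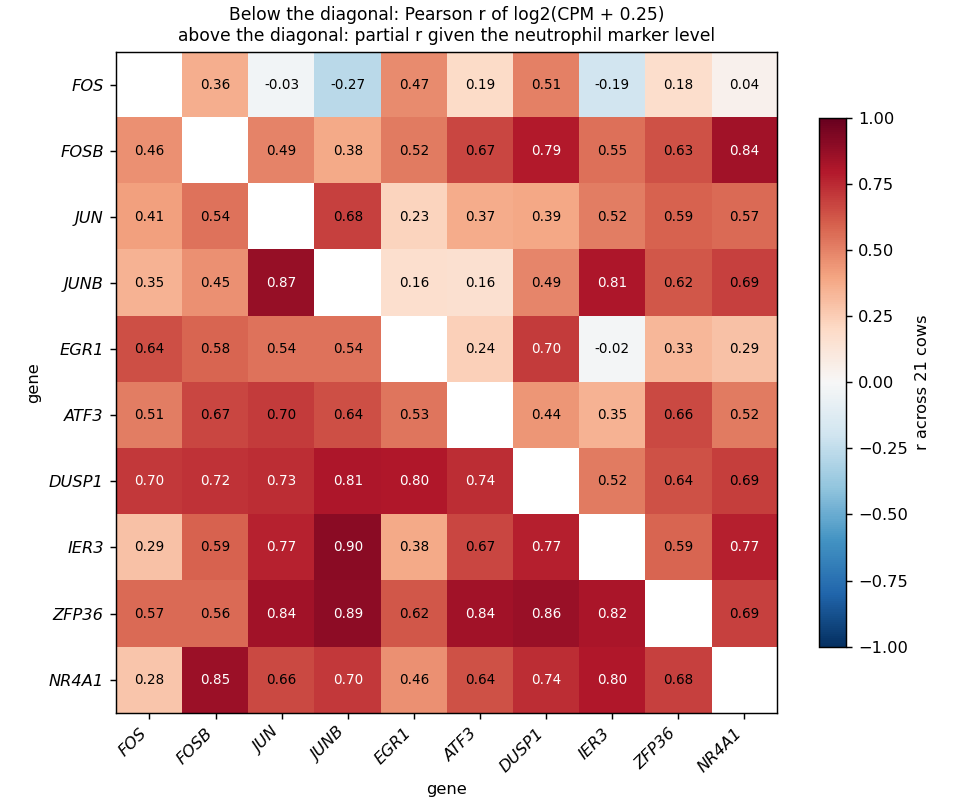
Correlation of every pair of the 10 genes across 21 cows, as Pearson r below the diagonal and as partial r given the neutrophil marker level above it. All 45 values below the diagonal are positive, and FOS holds the lowest value on both sides.

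FOS passed with the fewest other members and had the lowest median r with them (0.459). Few genes of any kind passed with FOS. The share of genes outside the members that passed positively was 1.7% for FOS, 1.15% for FOSB and 9.05% for EGR1. Whether FOS differed from the other members was not tested. FOS passed with DUSP1 (r = 0.705, permutation p = 0.0004), EGR1 (r = 0.641, permutation p = 0.00161) and ZFP36 (r = 0.569, permutation p = 0.00679), 3 of its 9 partners. Its r with NR4A1, 0.276, was the lowest of all 45 pairs. LY12 bore on this. FOS was 429 CPM in LY12, below the median, while 6 of the other genes were at their highest there. The ratio of FOS to FOSB was 2.52 in LY12 and between 9.19 and 31.2 in the other 20 cows. The ratio of FOS to EGR1 was 0.694 in LY12 and at least 2.19 elsewhere, and that of FOS to NR4A1 was 2.47 in LY12 and at least 11.1 elsewhere. These ratios are within a library, so the scaling does not enter them, and only their differences between cows can be read, since gene length was not corrected. Without LY12, r of FOS with DUSP1 was 0.852, with EGR1 0.777 and with FOSB 0.660, against 0.459 with FOSB in all cows. The median r of FOS with the other members was then 0.549, above those of EGR1 (0.451) and FOSB (0.499), so FOS was no longer the lowest. The FOS to JUNB ratio varied 37.2-fold, from 0.410 in LY12 and 0.909 in HY7 to 15.2 in LY1, so that its spread was not a matter of LY12 alone. A range this wide was not particular to FOS, since the EGR1 to IER3 ratio varied 37.7-fold.

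**Figure D3:**
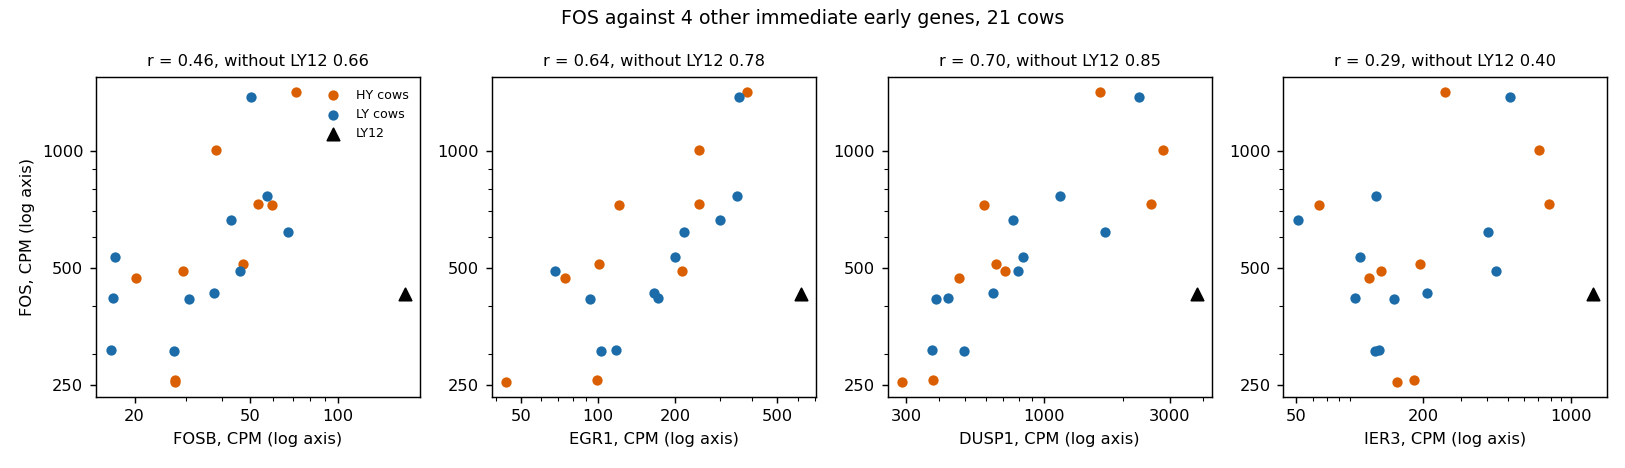
FOS against FOSB, EGR1, DUSP1 and IER3 in CPM on log axes, with 1 point per cow, HY cows in orange, LY cows in blue and LY12 as a black triangle. LY12 lies to the right of all other cows in each panel, at a FOS level of 429 CPM.

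The early genes followed the level of neutrophil markers. That level was the mean log2(CPM + 0.25) of 7 markers, among them CXCR2, S100A8, S100A9, S100A12, MMP9 and ALOX5AP, whose summed CPM ranged from 1746 in HY9 to 13663 in HY3. In bulk RNA, fewer cells of a type and less RNA per cell cannot be told apart. Of the 10 genes, 8 passed an adjusted p of 0.1 over all genes, all positively, while 6.99% of all genes did so. Their median r was 0.700, against -0.013 over all genes. ZFP36 was closest (r = 0.869, permutation p = 1e-05, rho = 0.912, permutation p = 1e-05), followed by JUNB (r = 0.830, permutation p = 1e-05, rho = 0.930, permutation p = 1e-05). Without HY3 and HY9, the cows of most distant marker level, r was 0.830 for ZFP36 and 0.808 for JUNB.

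DUSP1 (r = 0.757), JUN (r = 0.747), IER3 (r = 0.701) and ATF3 (r = 0.700) passed with adjusted p between 0.00436 and 0.0133. FOS (r = 0.571, adjusted p = 0.0769) and EGR1 (r = 0.560, adjusted p = 0.0868) were near the threshold. Both were past it or not depending on the cows included. FOS no longer passed in the 16 cows (adjusted p = 0.103), on ranks (0.146) or without any 1 of HY3, HY7, HY9, LY8, LY9 and LY10 (up to 0.182). EGR1 no longer passed in the 16 cows (adjusted p = 0.109) or without any 1 of HY5 to HY9, LY3, LY4 and LY8 to LY11 (up to 0.292). NR4A1 (r = 0.433, permutation p = 0.0511) and FOSB (r = 0.306, permutation p = 0.175) did not pass, although NR4A1 did on ranks (rho = 0.601, adjusted p = 0.0422). In LY12 the neutrophil level was 8.76, inside the range of the other cows (6.67 to 10.2), and without it r of NR4A1 was 0.532 and that of FOSB 0.322.

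**Figure D4:**
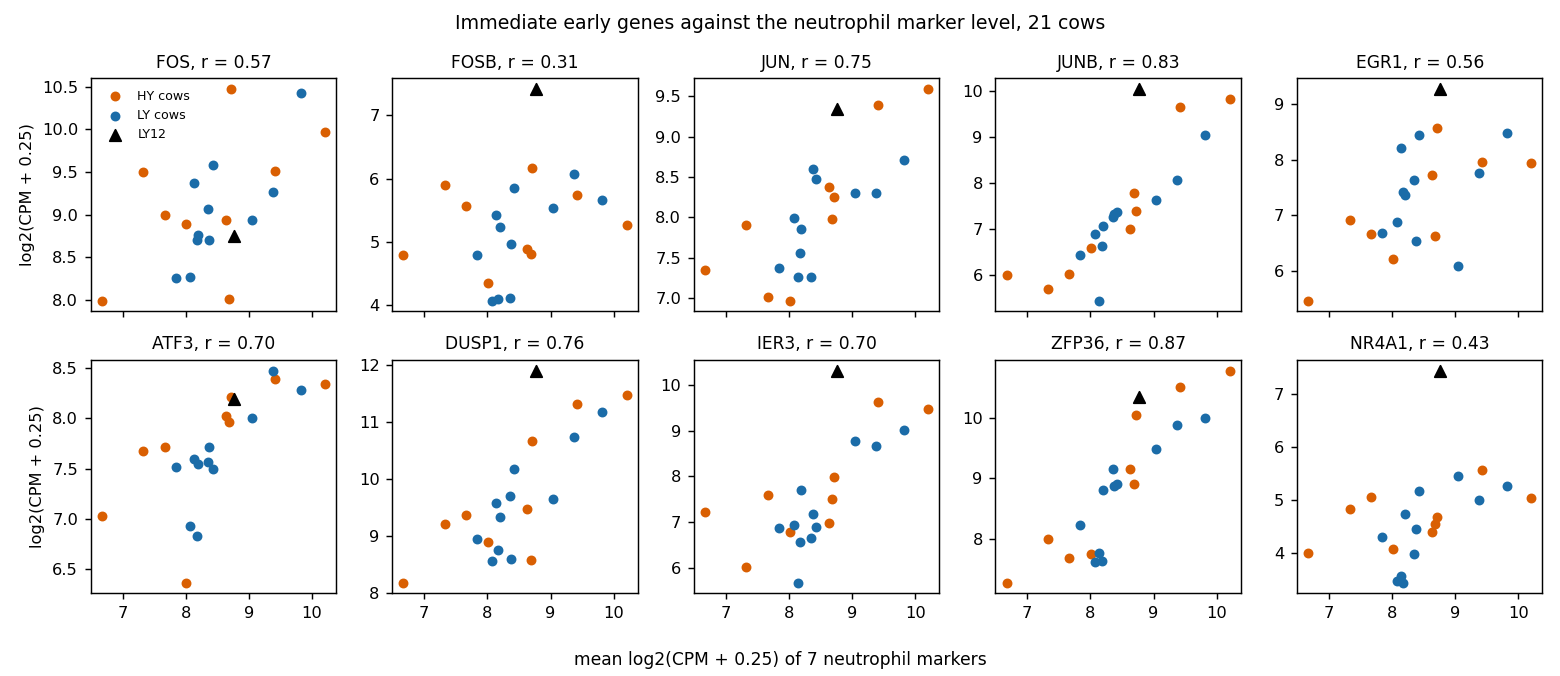
Level of each gene against the mean log2(CPM + 0.25) of 7 neutrophil markers, with 1 point per cow, HY cows in orange, LY cows in blue and LY12 as a black triangle. ZFP36 and JUNB follow the marker level most closely, and LY12 lies above the other cows of similar marker level for every gene but FOS and ATF3.

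With the neutrophil marker level held constant, the pairs of early genes were less tight. The median partial r was 0.507, 41 of 45 pairs stayed above 0, and 8 passed the adjusted p. This setting was chosen after the values had been seen. With the neutrophil, macrophage, T cell and epithelial levels held constant together, the median was 0.498, 42 pairs were above 0 and 6 passed. In that setting 1 gene outside the members passed positively with at least 5 members, against 746 with no level held. The share of all pairs that passed is not given for either setting. Holding the T cell level alone changed little (median 0.652). The FOSB-NR4A1 pair remained close given the neutrophil level (partial r = 0.841), as did JUNB-IER3 (0.810) and FOSB-DUSP1 (0.791). The pairs that turned negative all held FOS or EGR1, as FOS-JUNB (-0.273), FOS-IER3 (-0.188), FOS-JUN (-0.025) and EGR1-IER3 (-0.021).

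CXCR2, a receptor for neutrophil chemokines, passed with 8 of the 10 genes, S100A9 with 7, S100A8 and ALOX5AP with 6 each and MMP9 with 5. Of all genes outside the members, 6.05% passed positively with at least 5 members and 18.2% with at least 1. S100A12 passed with none (mean r = 0.274). FOSB had the lowest r of the 10 with each of these 6 markers.

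No early gene passed with the macrophage marker level, although 21.2% of all genes did in either direction, and r ran from -0.185 for FOS to 0.112 for EGR1. The single macrophage markers did not move alike. CD68 passed positively with 4 members, whereas MSR1, a scavenger receptor, passed negatively with 6 (mean r = -0.552) and was lowest against IER3 (r = -0.726). CD163, CSF1R, CD14, C1QA, C1QB and C1QC passed with none. Thus 1 of the 8 markers passed positively and 1 negatively with at least 1 member, while 18.2% of all genes outside the members did so positively and 15.1% negatively, and 3.22% passed negatively with at least 5. The epithelial marker level passed with none either, while 25.6% of all genes did, and r was below 0 for all 10, from -0.461 for ATF3 to -0.038 for FOS, while 42.1% of all genes had an r above 0 and their median was -0.094. Without HY3, JUN (r = -0.546), ATF3 (-0.516) and ZFP36 (-0.512) passed, and without LY10 ATF3 did (-0.533). The milk protein share of a library also had an r below 0 with all 10. It ran from -0.562 for ATF3 (permutation p = 0.00772) to -0.138 for FOS (permutation p = 0.552). Without HY8 and HY9, the cows of most distant share, r of ATF3 was -0.249. No value over all genes stands beside these. The single epithelial markers did not move alike either. Of the milk protein genes on that list, CSN3 had the lowest mean r with the members, -0.375, and ELF5 had -0.360. Mean r was nearer 0 for KRT8 (-0.092) and KRT7 (-0.061). It was above 0 for 3 of the 12 markers, CDH1 (0.115), CLDN4 (0.074) and KRT18 (0.016).

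EGR1 was the only member to pass with the T cell marker level (r = 0.704, permutation p = 0.00026, rho = 0.662, permutation p = 0.0012), against 8.89% of all genes passing positively. Its adjusted p was 0.0150, r was 0.586 without LY5 and HY9, the cows of most distant T cell level, and 0.656 without LY12. In the 16 cows it no longer passed (r = 0.669, adjusted p = 0.131), nor without HY9 (r = 0.615, adjusted p = 0.1003), and without HY7 DUSP1 passed as well (r = 0.526). Each of the 10 T cell markers, which make up that level, passed with EGR1 and with no other member, from r = 0.573 for CD3G to 0.724 for CD4. Of all genes outside the members, 9.05% passed positively with EGR1. With the B cell marker level, which rests on 4 genes of low count, r of EGR1 was 0.569 with an adjusted p of 0.105, and none of the 10 passed, while 5.51% of all genes did. EGR1 passed with it without any 1 of HY3, HY7, LY5 and LY9 (r = 0.544 to 0.630) and among genes with a mean of at least 10 counts (adjusted p = 0.0890). The number of genes detected in a cow moved with EGR1 too (r = 0.627, permutation p = 0.00195, and 0.416 without LY2 and HY9, the cows of most distant gene number), and its part in the T cell relation was not tested. Whether EGR1 differed from the other members in these relations was not tested either.

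Other early genes, listed by symbol with results of these data known, moved with the members. Of 38 that had a count, 31 passed positively with at least 1 member and 22 with at least 5, against 18.2% and 6.05% of all genes outside the members. NFKBIZ, an inhibitor-like regulator of NF-kappaB, passed with 9 members. PPP1R15A, which directs dephosphorylation of eIF2-alpha, had the highest mean r (0.764) and passed with 8, as did PLAUR, MAFF, PIM1 and GADD45A. MYC (mean r = -0.059), SRF (0.20) and CTGF (-0.122, the lowest) passed with none. EGR2, EGR3, IER5, NR4A3, KLF2, BTG2, DUSP5 and PER1 had no row.

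Inflammatory genes moved with the members as well, 19 of 22 passing positively with at least 1 member and 16 with at least 5. OSM, a cytokine of the IL-6 family, passed with 9. IL1RN, the antagonist of the IL-1 receptor, the chemokines CCL4 and CXCL2, TNF and IL1B passed with 8 each. CXCL10, an interferon-induced chemokine, passed with none (mean r = -0.035). LY12 held the highest level of 16 of these 22 genes, while it was the highest cow for 13.4% of the other genes with a mean of at least 10 counts. TNF was 871 CPM in LY12, 140 in LY2, which was next, and 27.5 in the median cow. IL1B was 12823 CPM in LY12, 3908 in HY3, which was next, and 722 in the median cow. Without LY12, 9 of the 22 passed with at least 5 members and 19 of the 38 other early genes did, and the count over all genes outside the members fell from 746 to 468. In the 16 cows these counts were 5, 6 and 238, and on ranks in all cows they were 10, 16 and 531. Given the neutrophil marker level, no inflammatory gene and 1 other early gene passed with at least 5 members, beside 1 gene outside the members in all.

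Heat shock genes passed with few members. Of 19 with a count, DNAJB1 passed with 4 members and HSPA1A with 2, both co-chaperone or chaperone genes induced by protein damage, and none passed with 5. The median over the list of the mean r was -0.098, against -0.003 over all genes outside the members. HSPE1, a mitochondrial chaperonin, had the lowest mean r (-0.465) and passed negatively with 3, and HSPD1 and DNAJB4 did so with 1 each. The 2 genes that passed positively and the 3 that passed negatively, of 19, stand beside 18.2% and 15.1% of all genes outside the members. The highest cow for DNAJB1 was LY2 (791 CPM), and that for HSPA1A was LY12 (1644 CPM, with HY5 next at 788).

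Of the kinases and factors upstream of the early genes, 10 of 23 passed positively with at least 1 member and 5 with at least 5. The shares over all genes outside the members were 18.2% and 6.05%, and they stand beside the partner counts below as well. MAP2K3, an activator of p38, passed with 7 members, the NF-kappaB subunits NFKB1 and RELA with 6 each, RPS6KA1 with 5 and MAP2K2 with 3. RPS6KA3 had the lowest mean r (-0.327). Among 15 genes of bZIP partners of AP-1, which share FOSL1, FOSL2, JUND and MAFF with the list of early genes, 11 passed with at least 1 member and 8 with at least 5. MAFF passed with 8, ATF4, FOSL2 and BATF3 with 7 each, MAFG and DDIT3 with 6 each, and ATF7 had the lowest mean r (-0.184). In the 16 cows no partner and 2 upstream genes passed with at least 5 members, and without LY12 5 partners and 3 upstream genes did. Without HY3, 4 partners did. Over all genes outside the members, 468 passed with at least 5 members without LY12, and the count in the 16 cows is given above.

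Over the 21 cows, the genes most like the mean z score of the members were PPP1R15A (r = 0.924), POLR2C (0.924), CLK3 (0.911), GSK3A (0.904), FGD3 (0.896), CSRNP1 (0.895), ZC3H12A (0.894), PTPN1 (0.891), FLCN (0.888) and THBD (0.887), among 9601 genes with a mean of at least 10 counts outside the lists of members and date symbols. All but PPP1R15A passed with 9 members. CSRNP1 was 400 CPM in LY12 and 85.8 in HY3, the next cow, and POLR2C was 257 CPM in LY12 and 207 in HY3. The least alike were GRSF1 (-0.866), TPD52 (-0.856), CYP20A1 (-0.843), METTL14 (-0.835) and CHURC1 (-0.831). These values are a description, since the order was taken from the same cows.

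**Figure D5:**
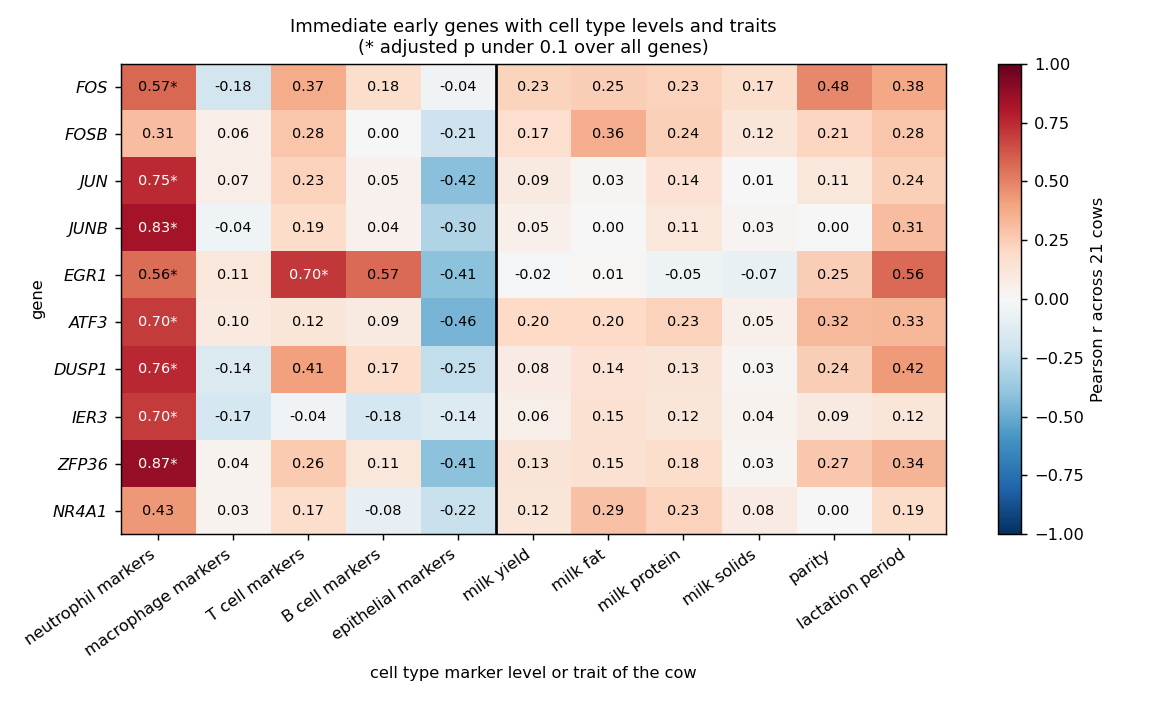
Pearson r across 21 cows of each gene with 5 cell type marker levels (left of the line) and with 6 traits (right of the line), an asterisk marking an adjusted p under 0.1 over all genes. Asterisks stand in the neutrophil column for 8 genes and in the T cell column for EGR1, and in no trait column.

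The yield groups were not told apart by the early genes. In the test of HY against LY with edgeR, none of the 10 passed an adjusted p of 0.1, as for 0% of all genes, and none had an unadjusted p under 0.05, while 4.7% of all genes did. DESeq2 called none of the 10 at either threshold, and 0.00811% and 2.98% of all genes. The log2 fold change of HY over LY ran from -0.44 for NR4A1 to 0.26 for ZFP36. For NR4A1, HY ranged from 15.7 to 47.4 CPM and LY from 10.6 to 174 in LY12, with LY2 next at 43.4. Its median was 25.5 CPM in HY and 23.9 in LY, and its mean log2(CPM + 0.25) was 4.690 and 4.693. The fold change of NR4A1 without LY12 is not given. For ZFP36, HY ranged from 154 to 1763 CPM and LY from 195 to 1311. The standard errors by DESeq2 were 0.25 for ATF3 to 0.56 for JUNB on the log2 scale, and the lowest unadjusted p of the 10 was 0.276, for EGR1. The groups overlapped for every gene.

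Milk yield, entered as the breeding value of each cow, was tested by regression over all genes, as were the values of fat, protein and solids. None of the 10 genes passed with any of these, at the adjusted threshold (0% of all genes for each) or at an unadjusted p under 0.05. The latter was met by 2.49% of all genes for milk yield, 2.3% for fat, 2.3% for protein and 1.65% for solids. With milk yield, r ran from -0.020 for EGR1 to 0.225 for FOS (permutation p = 0.327). Over the 21 cows the largest r with any milk trait was that of FOSB with fat, 0.361 (permutation p = 0.107). It was 0.174 without HY2 and LY9, the cows of most distant fat value, and 0.159 in the 16 cows. Within LY, r with fat ran from 0.348 for FOS to 0.735 for NR4A1, with ZFP36 (0.691) and FOSB (0.671) next. Within HY, NR4A1, ZFP36 and FOSB had r of 0.024, -0.091 and 0.431, and the difference between the groups was not tested. The values within LY were not tested, and none over all genes within LY stands beside them. LY12, high in NR4A1 and FOSB, had a fat value of -3.49, in an LY range of -14.4 to -2.78. Values within LY without LY12 are not given. Given the neutrophil marker level, the partial r of ZFP36 with fat was 0.557, against an r of 0.154 without it, and this value, chosen after the data had been seen, was not tested.

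Parity and lactation period gave 1 gene each at the unadjusted threshold and none after adjustment (0% of all genes for each). FOS met it for parity (r = 0.484, permutation p = 0.0264, rho = 0.449, permutation p = 0.0429), with an adjusted p of 0.959, while 4.75% of all genes met the unadjusted threshold. Its r with parity was 0.621 without LY1 and LY2, 0.342 in the 16 cows and 0.341 without HY2. LY1, LY2 and HY2 shared the highest parity, and r without all of them is not given. EGR1 met it for lactation period (r = 0.563, permutation p = 0.00847, rho = 0.496, permutation p = 0.0241), with an adjusted p of 0.133, and 20.3% of all genes met the unadjusted threshold for this trait. Without HY1 and LY9, the cows of most distant lactation period, r of EGR1 was 0.644, and in the 16 cows it was 0.596. EGR1 passed the adjusted threshold without HY1 (adjusted p = 0.0868) or without HY4 (0.0714). Given the T cell marker level, the partial r of EGR1 with lactation period was 0.415. All 10 genes had a positive r with lactation period, with a median of 0.317, against 0.067 over all genes, and 56.3% of all genes had a positive r.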

How the data were processed

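For each cow the authors deposited raw read counts per gene. Per the labels and the study's methods, reads were trimmed with Trimmomatic, mapped to bosTau7 with Bowtie2 within TopHat2 and counted with HTSeq; versions and strand setting are not given in the sources used here. A row named null held 0.036% to 0.151% of the gene counts and was left out with the 5 HTSeq summary rows, and 23 symbols that had turned into dates were not named. Counts were scaled with TMM factors, computed in Python after the method of edgeR, and analysed as log2(CPM + 0.25). Simple regression was fitted on all 12333 genes with a count, with Benjamini-Hochberg adjustment and a threshold of 0.1 as in the study. Pairs of members with any gene formed 1 family of 123275. HY and LY were compared with edgeR's quasi-likelihood test, and with DESeq2 1.42.0 as an alternative. Permutation p-values are two-sided, from 100000 permutations, and were not adjusted. Marker levels are means over the markers with a count, each marker itself being left out of the test of its level. No 2 libraries agreed within sampling noise (chi-square over genes at least 33.7 times its degrees of freedom). Scripts were tested on simulated data. All 10 members, the leading and lowest genes of each list, and the genes most and least like the members' mean are named, except for genes not reported here. The members and lists were chosen with earlier results of these data known. Alternatives changed the size factors, pseudocount, count filter, ranks, covariates, robust weights, cell type levels and cows included. The sets by mapping rate follow the study's supplement.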

Additional observations from a re-analysis of the deposited data

How the results depend on the processing

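The number of early genes past an adjusted p of 0.1 stayed at 0 for HY against LY, for the 4 milk traits, for parity and for the macrophage markers under every alternative run. With the neutrophil markers it was between 6 and 8 throughout. With the T cell markers it fell from 1 to 0 in the 16 cows of the lower mapping rate set, and it was 0 to 2 when single cows were left out. With the B cell markers it rose from 0 to 1 among genes with a mean of at least 10 counts, and it was 0 to 1 when single cows were left out. For lactation period it was 0 to 1, and for the epithelial markers 0 to 3, when single cows were left out. The 32 pairs of early genes became 21 in the 16 cows, 6 given 4 marker levels and 8 given the neutrophil level, an alternative chosen after seeing the data, as were the partial correlations of single genes with traits. They were 29 to 37 when single cows were left out and 32 or 36 under the other alternatives over all cows. The share of all pairs of a member with any gene that passed is not given under these alternatives. In the 16 cows fewer samples entered the test, and for the rest the cause was not tested. No value changed sign among the called members. Within LY 22 pairs passed, and within HY pairs are given by r and were not tested. No paired analysis was possible because the labels give the groups no shared replicate numbers. The lowest count of a member was 80, but CD28 and the B cell markers were at or near 0 in some cows. Over all cows, r of the members with the log2 total count ran from -0.298 for ATF3 to 0.226 for EGR1. Within HY it ran from -0.602 for IER3 to 0.200 for FOS. The part of depth was not tested.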
